A study of Homo sapiens with 9 samples.

Results

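The genes described here encode the plasminogen activation system of A375 cells: the urokinase-type activator (*PLAU*), the tissue-type activator (*PLAT*), the urokinase receptor (*PLAUR*), and the inhibitor serpins protease nexin-1 (*SERPINE2*) and plasminogen activator inhibitor 2 (*SERPINB2*). They were taken from the count table by symbol. All 5 had a row among 20463 annotated genes, and all 5 passed the filter on low counts, which kept 13968 genes. Sequencing of polyadenylated RNA was done in A375, an established human melanoma line, after 48 h with Salvianolic acid B (SalB), a phenolic acid of the herb Salvia miltiorrhiza. The 3 groups were untreated control cells, cells given 100 µM SalB and cells given 200 µM SalB, with 3 libraries each. The labels give the 48 h for the treated cells only and no time for control. A difference in culture time therefore cannot be told apart from one of SalB in the comparisons with control. All groups were the same line in DMEM with serum. The labels call the replicates biological but do not say that they came from separate cultures, so the p-values measure only the spread between these libraries.

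Plasminogen activators are secreted serine proteases that cut the zymogen plasminogen into plasmin, which in turn degrades fibrin and matrix proteins and activates other proteases. The urokinase receptor holds urokinase at the cell surface and so confines its action to the pericellular space, while serpins trap the activators by forming covalent complexes with them. In melanoma the system is known for its part in invasion. Tissue-type activator is best known for dissolving fibrin clots, protease nexin-1 also blocks thrombin and plasmin, and plasminogen activator inhibitor 2 is held largely inside the cell.

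Depth was similar, at 27348621 to 30629685 counts per library. Levels are given as CPM, counts scaled to the library's size. The melanoma character of the cells was seen in *SOX10*, which averaged 341 CPM in control, 529 CPM at 100 µM and 472 CPM at 200 µM, whereas the pigment genes *PMEL*, *MLANA*, *TYR* and *DCT* averaged below 1 CPM in every group. Other melanoma markers went in mixed directions. *MITF* averaged 28.6 CPM in control, 17.6 CPM at 100 µM and 20.0 CPM at 200 µM. In the same order *S100B* averaged 41.6, 62.3 and 19.1 CPM, and *S100A1* 5.27, 3.21 and 6.97 CPM. The summed melanoma list was 1299 to 1382 CPM at 100 µM and 1084 to 1261 CPM at 200 µM, against 885 to 969 CPM in control. Most of that sum was *SOX10*, *CSPG4* and *ERBB3*. The leukocyte marker *CD3E* had 0 counts in all 9 libraries. The summed leukocyte list, most of it *CD68*, was 18.1 to 20.2 CPM at 100 µM and 59.2 to 84.6 CPM at 200 µM, against 21.6 to 25.2 CPM in control. The summed epithelial list was 311 to 344 CPM at 100 µM and 299 to 396 CPM at 200 µM, against 235 to 244 CPM in control. Most of it was *KRT18*, while *EPCAM*, *CDH1*, *KRT5* and *KRT19* averaged below 1 CPM in every group. The summed fibroblast and endothelial list was 44.5 to 50.1 CPM at 100 µM and 24.6 to 32.4 CPM at 200 µM, against 22.1 to 23.1 CPM in control. Most of it was *PDGFRA* and *PDGFRB*. At 100 µM these averaged 14.3 and 28.6 CPM and at 200 µM 5.77 and 18.7 CPM, against 10.6 and 10.1 CPM in control. At 200 µM replicate 3 stood apart, with 4.75% of its counts in mitochondrially encoded mRNAs, against 1.87% and 1.83% in replicates 1 and 2. At 100 µM the same share was 2.86% to 3.15%, against 2.11% to 2.32% in control. The GC gap, the mean log2 deviation from the control mean of GC-rich genes minus that of GC-poor genes, was 0.66 to 0.91 at 100 µM and 0.48, 0.93 and -0.25 at 200 µM, against -0.15 to 0.16 in control. The part of these differences in the results was not tested further than by the fits with the GC trend removed and with single libraries left out.

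The bases before the gene starts are shown first for *PLAUR*, *SERPINE2* and *SERPINB2*, the 3 genes whose transcripts were lower at 100 µM than in control and higher at 200 µM than at 100 µM. RefSeq promoter entries on GRCh38.p14 were matched by symbol for 4 of the 5 genes, in 6 entries, because *PLAU* and *SERPINE2* have 2 starts each. Each run below is the 250 bases before the start, 5′ to 3′ on the gene's strand, with motif matches in capitals. The first is *PLAUR*, chr19:43670170-43670419, minus strand. The next is *SERPINB2*, chr18:63887455-63887704, plus strand. The last is the downstream start of *SERPINE2*, chr2:224031479-224031728, minus strand.
PLAUR: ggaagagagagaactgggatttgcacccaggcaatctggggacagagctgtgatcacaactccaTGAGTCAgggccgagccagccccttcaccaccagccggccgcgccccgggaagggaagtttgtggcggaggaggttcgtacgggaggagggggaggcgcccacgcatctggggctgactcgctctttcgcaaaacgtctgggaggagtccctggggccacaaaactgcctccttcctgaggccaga
SERPINB2: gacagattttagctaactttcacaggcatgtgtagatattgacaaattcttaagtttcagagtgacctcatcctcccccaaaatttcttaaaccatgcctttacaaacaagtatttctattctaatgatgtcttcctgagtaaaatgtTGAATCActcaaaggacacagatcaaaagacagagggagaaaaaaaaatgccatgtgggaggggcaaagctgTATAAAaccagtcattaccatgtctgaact
SERPINE2: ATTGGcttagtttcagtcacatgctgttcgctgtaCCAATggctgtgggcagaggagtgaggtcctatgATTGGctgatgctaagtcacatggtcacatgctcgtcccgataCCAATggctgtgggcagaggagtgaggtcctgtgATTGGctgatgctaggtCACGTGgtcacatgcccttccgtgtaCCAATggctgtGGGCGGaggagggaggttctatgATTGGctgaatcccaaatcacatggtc
Both strands were searched, and positions are counted back from the start. The motif of the AP-1 factors was written TGANTCA and that of Sp1 was written GGGCGG. The box bound by the TATA-binding protein was written TATAAA, and CCAAT was searched under its own letters. The E-box searched was CACGTG. The cyclic AMP response element was written TGACGTCA, and the NF-kB consensus was searched as well. A TGANTCA match lay at -186 to -180 in *PLAUR* and at -102 to -96 in *SERPINB2*. Such a match was held by 6.57% of the 35116 windows of the same length in the table. *SERPINB2* also had a TATAAA match, at -30 to -25, as did 10.7% of windows. The *SERPINE2* window held 7 CCAAT matches, and 7 of the 35116 windows, this one included, held as many. On the gene's strand they began at -215, -138 and -61, 77 bases apart, and on the other strand those at -181, -104 and -27 had the same spacing, with 1 more at -250. It also held 1 CACGTG match at -87 and 1 GGGCGG match at -50. The upstream start of *SERPINE2* and the downstream start of *PLAU* held only Sp1 matches, in 2 and 3 places. GGGCGG was held by 42.6% of windows. The upstream *PLAU* start held only 1 CCAAT match, a motif found in 32.0% of windows. The motifs did not overlap each other in these windows, and neither the NF-kB consensus nor the cyclic AMP element was matched in any of the 6. These matches describe letters and are not measured binding sites. The absence of a match covers these windows alone.

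**Figure D1:**
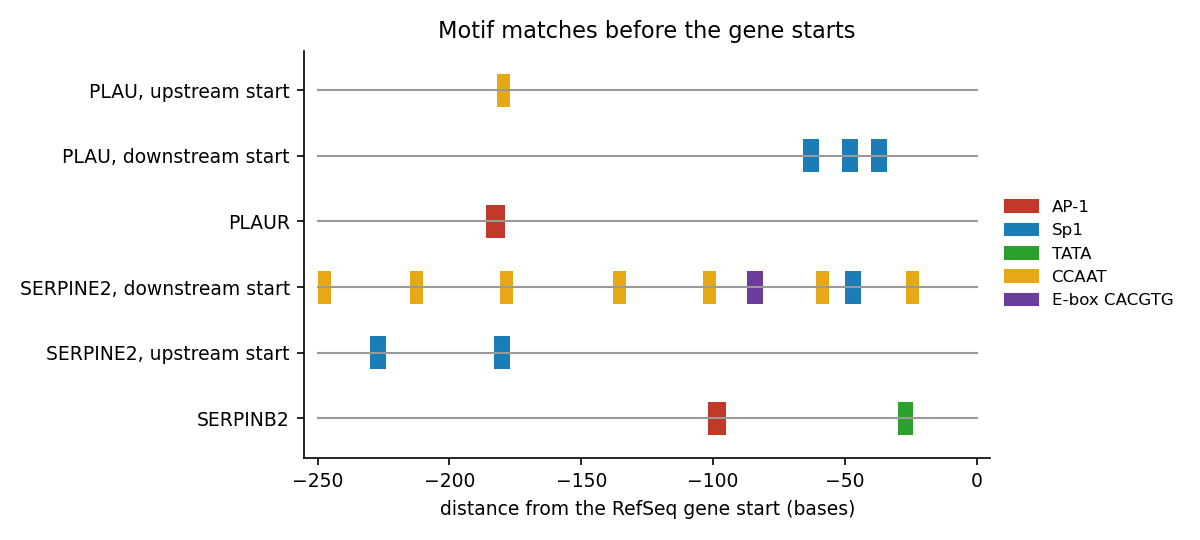
Motif matches in the 250 bases before each RefSeq start of 4 genes of the plasminogen activation system. The horizontal axis is the distance from the start in bases, each grey line is 1 entry, and coloured blocks are matches on either strand. AP-1 matches stand in PLAUR and SERPINB2, and the row of 7 CCAAT matches is in the downstream start of SERPINE2.

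Levels between genes were compared per transcript length, as TPM (transcript counts scaled to length and depth) computed from the counts and the length of 1 principal GENCODE v29 transcript per gene. *SERPINE2* was by far the most abundant of the 5, at 4093 ± 111 TPM in control, 1868 ± 43.9 TPM at 100 µM and 5354 ± 274 TPM at 200 µM (mean ± SD, n = 3). By mean TPM it was the 20th gene in control, the 76th at 100 µM and the 15th at 200 µM. It alone took 0.417% of gene counts in control, 0.184% at 100 µM and 0.540% at 200 µM. *PLAT* was next in control, at 134 ± 3.86 TPM, close above *PLAUR* at 118 ± 1.58 TPM, and their libraries did not overlap. *SERPINB2* followed at 17.2 ± 1.85 TPM, and *PLAU* was last at 0.432 ± 0.159 TPM.

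The order of the genes changed with the dose. At 100 µM *PLAT* had 127 ± 3.97 TPM and *PLAUR* 54.4 ± 4.45 TPM, and *PLAU* at 1.84 ± 0.662 TPM stood above *SERPINB2* at 0.199 ± 0.212 TPM, with no overlap of their libraries. At 200 µM *PLAUR*, at 140 ± 12.4 TPM, stood above *PLAT*, at 99.7 ± 10.6 TPM, again without overlap. *SERPINB2* was back above *PLAU*, at 11.8 ± 1.54 TPM against 0.582 ± 0.536 TPM. These ranks rest on the chosen transcript lengths.

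**Figure D2:**
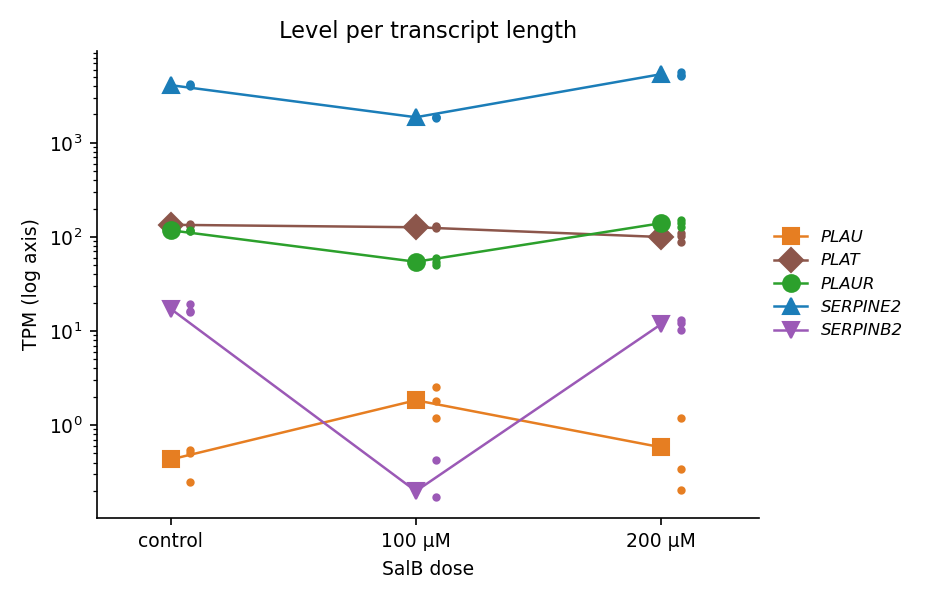
Level per transcript length of the 5 genes by SalB dose, in TPM on a log axis. Large symbols are means of 3 libraries joined by lines, and small points are single libraries. The SERPINB2 library at 100 µM with a value of 0 has no point. SERPINE2 is above the other 4 genes at every dose, and SERPINB2 falls below PLAU at 100 µM.

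In the comparison of 100 µM with control, the receptor and both inhibitor serpins fell and urokinase rose, while the call for tissue-type activator missed the threshold. Of the 5 genes, 3 were lower and 1 was higher in edgeR's quasi-likelihood test at an adjusted p under 0.05, where 18.2% of all tested genes were lower and 18.9% higher. The median log2 fold change of the 5 was -1.23, against -0.01 over all tested genes. The 5 were chosen with earlier results of these data known, so this difference does not show a response particular to them. In bulk RNA, fewer cells of a type and less RNA per cell cannot be told apart. Values below are CPM with TMM-scaled library sizes.

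Among the activators, *PLAU* (ENSG00000122861, protein-coding, GRCh38 chromosome 10, 73909177 to 73917497, plus strand) encodes urokinase. Its counts were 16, 17 and 8 in control, 57, 37 and 77 at 100 µM and 10, 36 and 6 at 200 µM. All 3 libraries at 100 µM were above all control libraries, but 200 µM replicate 2, at 1.28 CPM, was above the lowest of the 100 µM libraries in CPM. In CPM this was 1.84 ± 0.648 at 100 µM against 0.470 ± 0.174 in control, a log2 fold change of 1.96 ± 0.59 (SE; edgeR adjusted p = 0.028). The 3.90-fold difference was the 119th most positive among 13968 genes. Its call at 100 µM was lost without 100 µM replicate 1 (adjusted p = 0.072) or replicate 3 (0.091), or without control replicate 1 (0.070), 2 (0.066) or 3 (0.095). On the opposite strand *C10orf55* covers 31.1% of the *PLAU* exon bases. *C10orf55* had no row of its own in the counts, and no source used here states the strand setting. Reads of the 2 genes therefore cannot be told apart.

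*PLAT* (ENSG00000104368, protein-coding, chromosome 8, 42175233 to 42207724, minus strand) encodes tissue-type plasminogen activator. It had 169, 168 and 175 CPM in control, 155, 148 and 142 CPM at 100 µM and 124, 137 and 120 CPM at 200 µM. The 3 groups did not overlap and their means declined from dose to dose. The difference of 100 µM from control was -0.20 ± 0.08 on the log2 scale, with a 95% interval of -0.37 to -0.03 and an adjusted p of 0.064 by edgeR. At 200 µM it was -0.43 ± 0.08 (adjusted p = 0.0023), 1.34-fold lower than in control, and -0.37 without 200 µM replicate 3. Between the doses it was -0.22 ± 0.08 (adjusted p = 0.038). That last call was lost without any single library of control or 100 µM, or without 200 µM replicate 1 (adjusted p of 0.051 to 0.125), and after removal of each library's GC trend (-0.10, adjusted p = 0.15). With GC removed, the difference at 100 µM from control passed the threshold (-0.39, adjusted p = 3.8e-04), as it did without 200 µM replicate 3 (-0.18, adjusted p = 0.022).

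The receptor gene *PLAUR* (ENSG00000011422, protein-coding, chromosome 19, 43646095 to 43670547, minus strand) had 87.8, 83.9 and 84.2 CPM in control. It had 40.2, 33.8 and 35.4 CPM at 100 µM and 97.4, 109 and 99.2 CPM at 200 µM. Every 100 µM library was far below, and every 200 µM library above, the control libraries. At 100 µM *PLAUR* was 2.34-fold lower than in control, a log2 fold change of -1.23 ± 0.09 (edgeR adjusted p = 2.4e-05). At 200 µM it was 2.79-fold higher than at 100 µM (1.48 ± 0.09, adjusted p = 3.6e-06). The step above control at 200 µM was small, 0.26 ± 0.09 (adjusted p = 0.047, 95% interval 0.06 to 0.45). With 200 µM replicate 3 left out it was 0.29 (adjusted p = 0.012), but it was lost on leaving out any of 7 other libraries (adjusted p of 0.063 to 0.135).

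**Figure D3:**
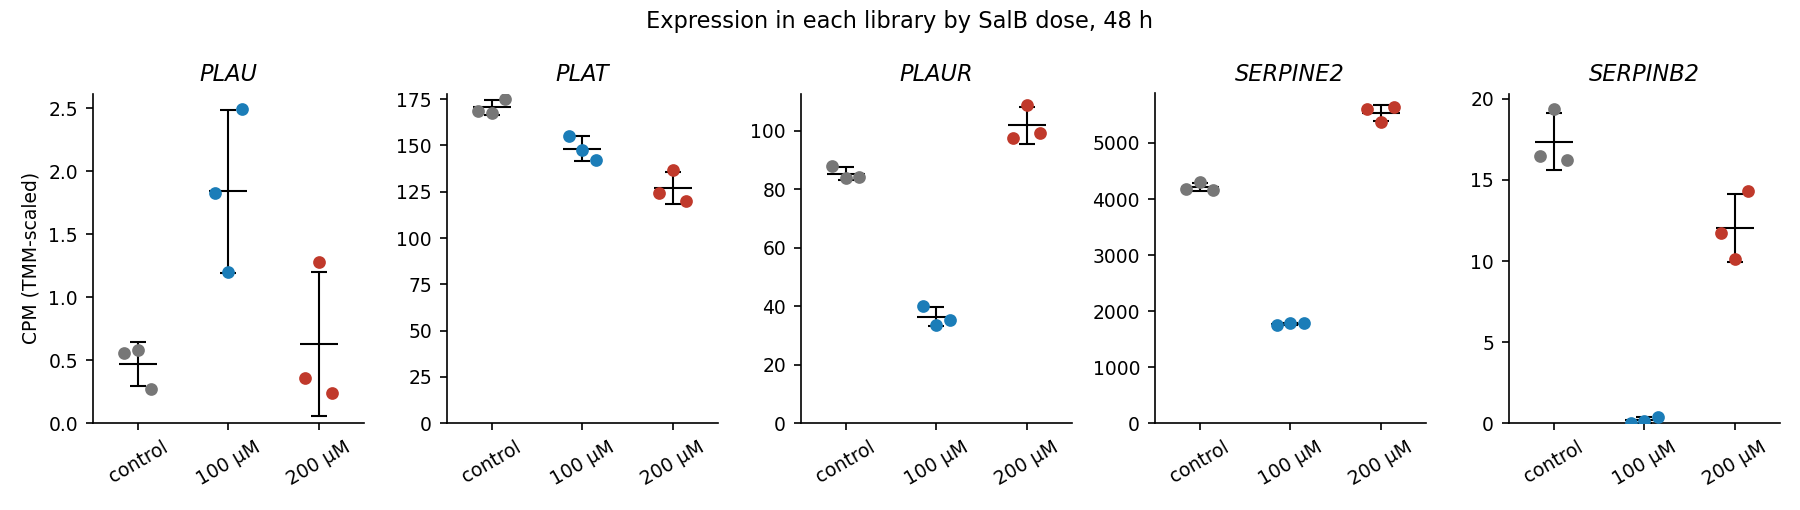
CPM of the 5 genes in each library, 1 panel per gene, by SalB dose. Points are single libraries, and the bar and whiskers give the mean and SD of 3. PLAUR, SERPINE2 and SERPINB2 are lowest at 100 µM, PLAU is highest there, and PLAT steps down with each dose.

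The inhibitor *SERPINE2* (ENSG00000135919, protein-coding, chromosome 2, 223975112 to 224039319, minus strand) encodes protease nexin-1, a serpin bound to cell-surface glycosaminoglycans. It had 4173, 4300 and 4164 CPM in control, 1751, 1792 and 1781 CPM at 100 µM and 5611, 5370 and 5635 CPM at 200 µM. Libraries of 1 group lay close together and the groups were far apart. It was 2.37-fold lower at 100 µM than in control (-1.25 ± 0.06 on the log2 scale, edgeR adjusted p = 2.1e-06), the 22nd smallest p among 13968 genes. It was 1.31-fold higher at 200 µM than in control (0.39 ± 0.06, adjusted p = 7.0e-04, 0.40 without 200 µM replicate 3). The direct comparison of 200 µM with 100 µM gave 1.64 ± 0.06 (adjusted p = 2.2e-07), a 3.12-fold difference.

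A second deposited table, of 100 features in values read as the authors' FPKM, listed *SERPINE2* as the only one of the 5. It gave 1718 ± 46.5 FPKM in control, 756 ± 14.8 FPKM at 100 µM and 2201 ± 99.1 FPKM at 200 µM (SD, n = 3). The order of the 3 groups was the one seen in the counts.

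*SERPINB2* (ENSG00000197632, protein-coding, chromosome 18, 63871692 to 63903890, plus strand) encodes plasminogen activator inhibitor 2, an inhibitor of urokinase. It had 476, 562 and 481 counts in control, 0, 5 and 12 counts at 100 µM and 323, 284 and 360 counts at 200 µM. The transcript was nearly absent at 100 µM, and the 0 of replicate 1 allows up to 0.0963 CPM (3 counts, counting error only). In CPM it had 0.184 ± 0.195 at 100 µM against 17.4 ± 1.73 in control, a log2 fold change of -6.53 ± 0.51 (edgeR adjusted p = 3.4e-05). It was the 9th most negative of 13968 values. The fold size of 92.6 rests on few counts: the log2 fold change was -7.66 without 100 µM replicate 3 and -5.96 without 100 µM replicate 1. At 200 µM it stood 64.2-fold above 100 µM (6.004 ± 0.51, adjusted p = 2.3e-05), with 7.13 and 5.43 on leaving out the same libraries.

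Against control, *SERPINB2* at 200 µM averaged 12.04 ± 2.11 CPM, against 17.4 ± 1.73 CPM. The difference of -0.53 ± 0.35 was not called (adjusted p = 0.27, 95% interval -1.32 to 0.26), although no 200 µM library reached the lowest control library. DESeq2 did call it (-0.52, adjusted p = 0.031), and without 200 µM replicate 3 it was -0.66 (adjusted p = 0.18). *SERPINB2* shares 19.9% of its exon bases with *SERPINB10* on the same strand. *SERPINB10* had 0 counts in all 9 libraries.

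In the comparison of 200 µM with control, *PLAUR* and *SERPINE2* were the 2 genes called higher and *PLAT* the 1 called lower, where 19.8% of all tested genes were higher and 17.5% lower. *PLAU* was not called, at 0.43 ± 0.62 (adjusted p = 0.62, 95% interval -0.97 to 1.83), and its sign turned without 200 µM replicate 2 (-0.63), while without replicate 3 it was 0.82. Between 200 µM and 100 µM, 3 of the 5 were higher and 1 was lower, where 22.4% of tested genes were higher and 21.9% lower. *PLAU* averaged 0.628 ± 0.570 CPM at 200 µM against 1.84 ± 0.648 CPM at 100 µM, a difference of -1.53 ± 0.57 that was not called (adjusted p = 0.055). Without 200 µM replicate 2 it was -2.62 (adjusted p = 0.0025), and DESeq2 called it (-1.54, adjusted p = 0.033). Both comparisons with control share the control libraries.

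**Figure D4:**
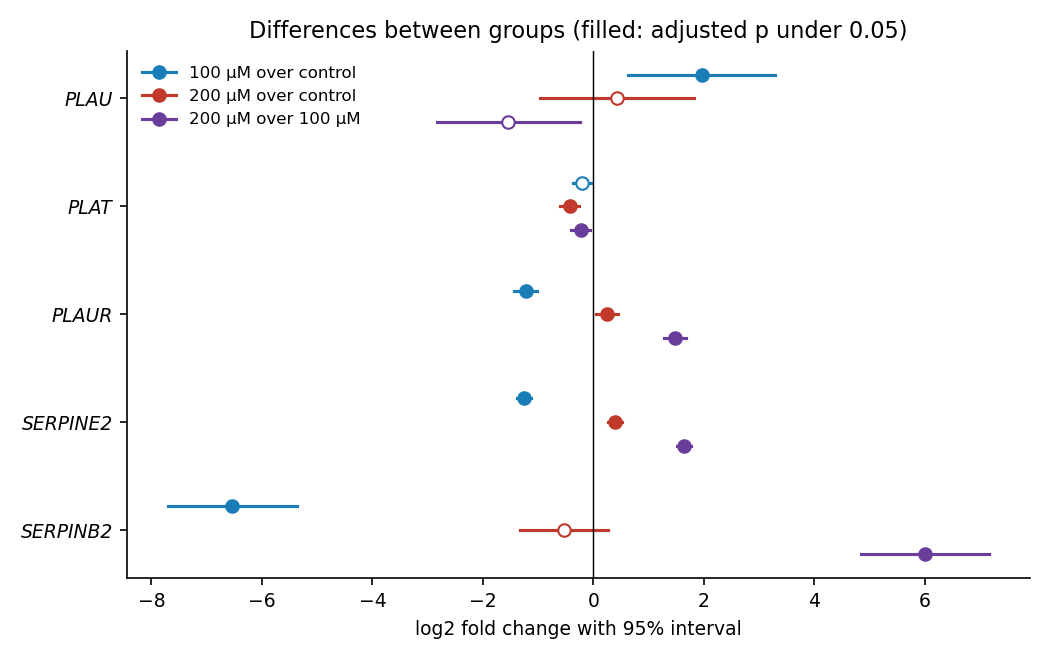
Log2 fold changes of the 5 genes in the 3 comparisons, with 95% intervals. Filled points had an adjusted p under 0.05 in edgeR. SERPINE2 and PLAUR lie on opposite sides of 0 for the doses against control, at -1.25 and 0.39 and at -1.23 and 0.26.

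The genes whose profile over the 9 libraries was nearest to each of the 5 were found by the root mean square difference of log2 CPM, centred on the control mean. For *SERPINE2* they were *GNG4* (0.09), *CD109* (0.09) and *LPXN* (0.11), with Pearson r of 0.995 to 0.997 over 9 libraries that fall into 3 dose groups. *CD109*, which encodes a surface protein of the alpha-2-macroglobulin family, had 172 CPM at 100 µM and 520 CPM at 200 µM, against 378 CPM in control. For *PLAUR* they were *SLC25A45* (0.11), *RAB38* (0.12), a small GTPase of melanosome transport, and the tetraspanin *CD9* (0.15). The profile of *SERPINB2* was matched less closely, by *BIRC3* (0.87), *IL32* (1.09) and *LCN2* (1.32). *BIRC3*, an inhibitor of apoptosis, had 3.02 CPM at 100 µM and 89.9 CPM at 200 µM, against 136 CPM in control. *LCN2*, which encodes lipocalin 2, had 0 counts in all libraries at 100 µM. The nearest genes to *PLAT* were *SPAG7*, *ZNF776* and *ANAPC5* (0.05 to 0.06), and those to *PLAU* included *FAM110D* (0.39) and *NID2* (0.53). *NID2* shares exon bases with *RTRAF* on the opposite strand, and *ZNF776* shares 11.5% of its exon bases with another gene, so both are uncertain.

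*SERPINA5*, encoding the protein C inhibitor, which also blocks urokinase, was higher at 100 µM than in control and lower at 200 µM. It averaged 10.1 CPM at 100 µM, against 4.39 CPM in control (1.19 ± 0.18, adjusted p = 0.0011). At 200 µM it averaged 1.47 CPM, below control (-1.58 ± 0.19, adjusted p = 3.2e-04). *SERPINI1*, encoding neuroserpin, an inhibitor of tissue-type activator, was named with its values in view. It fell at 100 µM, to 1.02 CPM against 3.51 CPM in control (-1.77 ± 0.25, adjusted p = 7.4e-04), and at 200 µM it had 2.42 CPM (-0.54 ± 0.24, adjusted p = 0.10). Without 200 µM replicate 3 that last difference was called (-0.80, adjusted p = 0.0092).

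The list of 48 other genes of the system held inhibitors, plasminogen binders, proteases that act on pro-urokinase, clearance receptors, partners of the urokinase receptor and substrates. Of these, 42 were tested. At 100 µM 13 were higher and 11 lower than in control, with a median log2 fold change of -0.01. At 200 µM 16 were higher and 9 lower (median 0.18), and between the doses 14 were higher and 13 lower (median 0.11). The share called was 57.1%, 59.5% and 64.3%, where 37.1%, 37.3% and 44.4% of all tested genes were called in either direction. The list was chosen with earlier results of these data known, so these shares do not show a response particular to it. Plasminogen itself was not among the transcripts tested: *PLG* had 1 count in all 9 libraries together.

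Among the clearance receptors, *LRP1*, which takes up complexes of activator and serpin from the surface, had 78.1 CPM at 100 µM against 21.6 CPM in control. That rise of 1.86 ± 0.12 was the most positive of the list at 100 µM (adjusted p = 1.3e-05). It was still 0.93 ± 0.12 above control at 200 µM (adjusted p = 3.7e-04). Among the plasminogen binders, 1 of 5 was called at 100 µM, where 37.1% of all tested genes were called. At 200 µM 1 was higher and 2 lower than in control, where 19.8% of all tested genes were higher and 17.5% lower. The call of the 1 higher (0.29) was lost in 10 of the 19 alternatives. The 1 called at 100 µM was *HMGB1*, at -0.30 ± 0.08 (adjusted p = 0.021). That call was lost without any single 100 µM library and without control replicate 1 or 2, and over the 19 alternatives the value ran from -0.33 to 0.11, with GC removal among those that lost the call. At 200 µM *HMGB1*, a chromatin protein that can also leave the cell, was 0.99 ± 0.09 lower (adjusted p = 4.4e-05), at 728 CPM against 1446 CPM in control. Among the partners of the urokinase receptor, 4 of 9 tested were higher at 200 µM than in control and 3 lower, where 19.8% of all tested genes were higher and 17.5% lower. Of these calls, that of the integrin chain *ITGB1* (-0.40, lower) was lost in 10 of the 19 alternatives and that of *EGFR* (0.54, higher) in 3. The integrin chain *ITGA3* had 372 CPM at 200 µM against 160 CPM in control (1.21 ± 0.11, adjusted p = 6.6e-05).

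Of the 12 substrates, all tested, 6 were higher and 4 lower at 100 µM than in control, and 5 were higher and 2 lower at 200 µM. Of all tested genes, 18.9% were higher and 18.2% lower at 100 µM, and 19.8% and 17.5% at 200 µM. At 100 µM the calls of *MMP3* (-0.81) and *FN1* (0.34) were lost in 13 and 9 of the 19 alternatives. The call of *LAMC1* at 200 µM against control (-0.22) was lost in 10. *MMP9*, encoding gelatinase B, was lower at both doses, at 0.733 CPM and 0.580 CPM, against 6.93 CPM in control (-3.23 ± 0.34 and -3.58 ± 0.35, adjusted p = 1.6e-04 and 9.1e-05). It shares 18.4% of its exon bases with an antisense gene and is uncertain. *MMP1*, encoding interstitial collagenase, had 2.21 CPM at 100 µM and 21.7 CPM at 200 µM, against 12.5 CPM in control, and differed between the doses by 3.30 ± 0.17 (adjusted p = 1.6e-06). *MMP3*, encoding stromelysin 1, was 1.73 ± 0.23 higher at 200 µM than in control (adjusted p = 5.0e-04). Its level was low, at 2.29 CPM against 0.684 CPM in control, with 281 counts in all 9 libraries together. *FN1*, encoding fibronectin, had 766 CPM at 200 µM against 206 CPM in control (1.90 ± 0.12, adjusted p = 7.1e-06). *A2M*, encoding the broad protease trap alpha-2-macroglobulin, was listed with the plasmin inhibitors, not with the substrates, and was named with its values in view. Between the doses *A2M* differed by 2.97 ± 0.08 (edgeR adjusted p = 6.9e-08). It had 43.9 CPM at 100 µM and 344 CPM at 200 µM, against 199 CPM in control (-2.18 ± 0.08 and 0.79 ± 0.07, adjusted p = 4.9e-07 and 6.2e-05). *LTBP1*, which binds latent TGF-beta, rose at 100 µM (1.70 ± 0.28, adjusted p = 0.0017), while *HGF*, a growth factor that urokinase can activate, fell (-2.21 ± 0.56, adjusted p = 0.013). The call of *HGF*, at 0.410 CPM against 1.91 CPM in control, was lost without 100 µM replicate 1 or 2 or control replicate 2. The laminin chain *LAMC1* and *LTBP1* were lower at 200 µM than at 100 µM, by -1.26 ± 0.07 and -1.09 ± 0.27 (adjusted p = 2.4e-06 and 0.010).

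**Figure D5:**
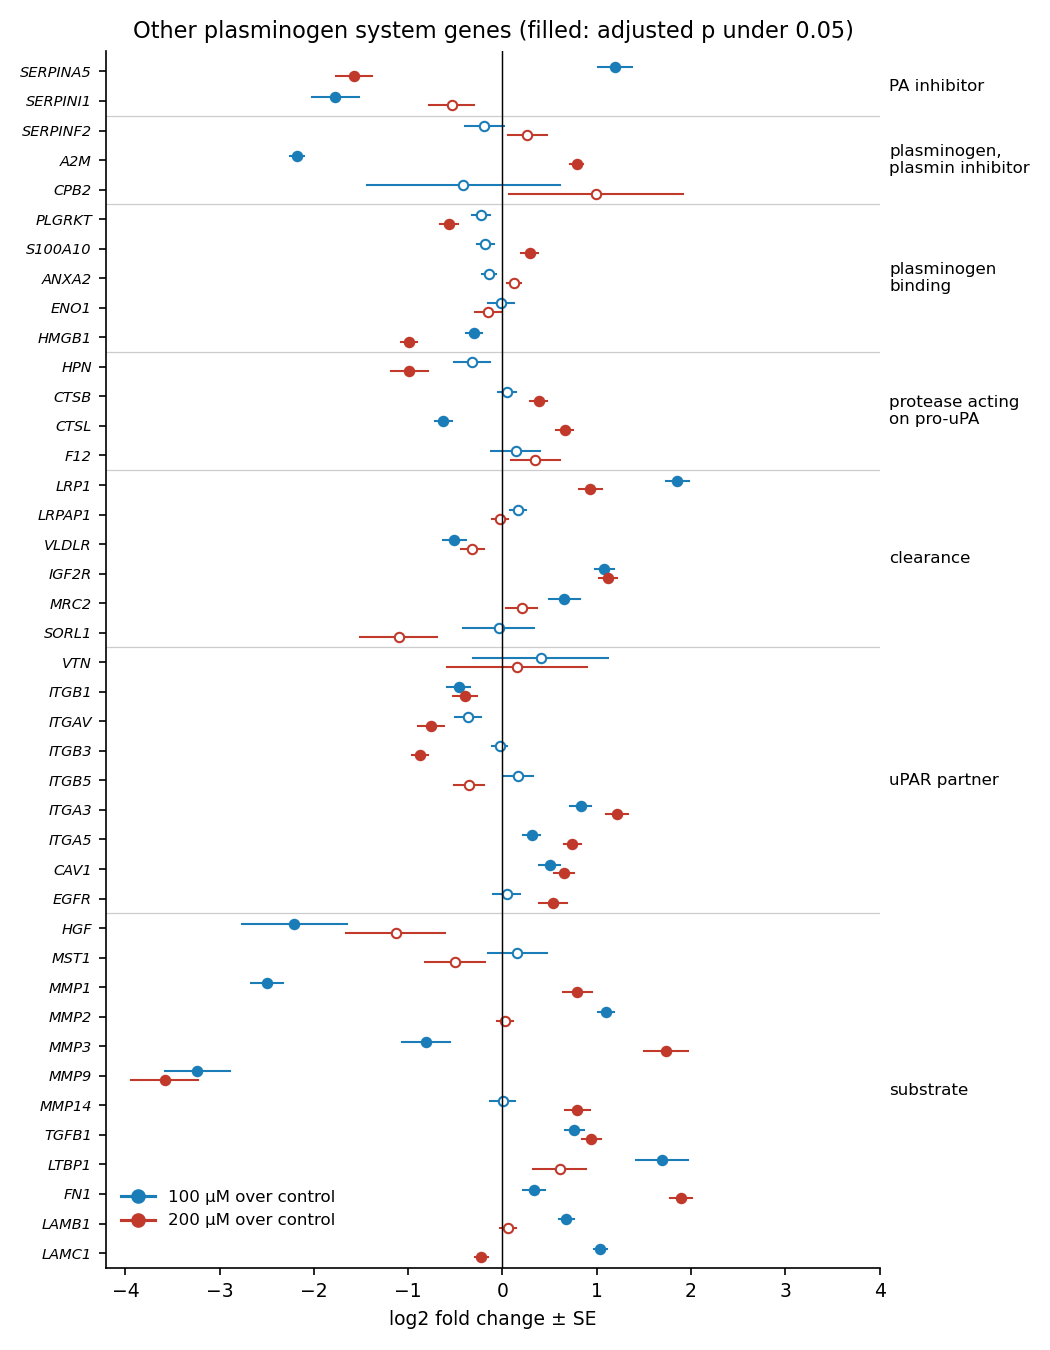
Log2 fold changes, with SE, of tested genes among the other genes of the plasminogen system, grouped by role. Blue is 100 µM over control, red is 200 µM over control, and filled points had an adjusted p under 0.05 in edgeR. A2M and MMP1 lie below 0 at 100 µM and above 0 at 200 µM, while SERPINA5 lies on the opposite sides.

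Other serpins mostly had few or no counts: of 27 outside the lists above, 9 were tested and 9 had no count in any library. At 100 µM 2 were higher and 4 lower than in control (median log2 fold change -0.05), and at 200 µM 1 was higher and 5 lower (median -0.43). The share called was 66.7% at both doses, where 37.1% and 37.3% of all tested genes were called. This list too was chosen with earlier results of these data known. *SERPIND1*, encoding heparin cofactor II, a thrombin inhibitor, had the most negative value at 100 µM, at 1.28 CPM against 7.93 CPM in control (-2.63 ± 0.24, adjusted p = 7.4e-05). At 200 µM *SERPIND1* had 4.28 CPM (-0.89 ± 0.22, adjusted p = 0.013). *SERPINH1*, a collagen chaperone, had 329 CPM at 100 µM against 179 CPM in control (0.88 ± 0.11, adjusted p = 5.0e-04). *SERPINA3*, encoding alpha-1-antichymotrypsin, fell to 82.9 CPM at 200 µM, against 427 CPM in control (-2.36 ± 0.32, adjusted p = 4.9e-04). At 100 µM it had 831 CPM (0.96 ± 0.30, adjusted p = 0.034), a call lost in 9 of the 19 alternatives. It shares 31.8% of its exon bases with another gene and is uncertain. *SERPINF1*, encoding pigment epithelium-derived factor, was the 1 higher at 200 µM, at 135 CPM against 108 CPM in control (0.32 ± 0.10, adjusted p = 0.036), a call likewise lost in 9 alternatives. Between the doses 3 were higher and 4 lower at 200 µM than at 100 µM, 77.8% of the 9, where 44.4% of all tested genes were called. Those higher were *SERPINB8*, *SERPIND1* and *SERPINF1* (1.77, 1.74 and 0.67), and *SERPINA3*, *SERPINH1* and *SERPINB1* led those lower (-3.33, -1.01 and -0.69).

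*SERPINB2* lies among 10 serpin genes of clade B on chromosome 18, between bases 63476761 and 64019779. Of these, 5 had 0 counts in every library, and *SERPINB7* and *SERPINB8* alone had counts in all 9. *SERPINB8*, an intracellular serpin, is the next clade B gene after *SERPINB10*. It had 85.4, 86.0 and 87.7 CPM in control, 27.2, 27.1 and 25.9 CPM at 100 µM and 77.3, 82.9 and 113 CPM at 200 µM. Its 100 µM libraries were far below the others, while control and 200 µM overlapped. It was 3.23-fold lower at 100 µM than in control (-1.69 ± 0.14, edgeR adjusted p = 3.7e-05) and at 200 µM differed from control by 0.08 ± 0.13 (adjusted p = 0.69), with the sign turned without replicate 3 (-0.09, adjusted p = 0.22). *SERPINB7* was 0.81 ± 0.18 lower at 100 µM on the log2 scale (adjusted p = 0.0071), at 1.76 CPM against 3.07 CPM in control. At 200 µM *SERPINB7* was 0.52 ± 0.18 lower than in control, at 2.14 CPM (edgeR adjusted p = 0.045). That call was lost in 15 of the 19 alternatives. Between the doses *SERPINB7* was not called (0.29 ± 0.18, edgeR adjusted p = 0.22). The clade B genes on another chromosome, *SERPINB1* and *SERPINB6*, were not called at 100 µM, with differences of -0.05 ± 0.11 and 0.01 ± 0.07 (adjusted p = 0.76 and 0.93). At 200 µM *SERPINB1* was lower, at 30.3 CPM against 50.4 CPM in control (-0.73 ± 0.11, adjusted p = 7.7e-04), and so was *SERPINB6*, at 88.7 CPM against 120 CPM (-0.43 ± 0.07, adjusted p = 0.0011). *SERPINB9*, also of clade B, had 0 counts in all 9 libraries. The window before *SERPINB8* held 2 TGANTCA matches, against 1 before *SERPINB2*. It also held 1 CCAAT match and 2 TATAAA matches, 1 on each strand. These 2 overlapped each other, at -142 to -137 and at -140 to -135. The share of windows with 2 TGANTCA matches was not computed, and a link of any of the motif matches to the levels was not tested.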

How the data were processed

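The authors deposited whole-number read counts per gene for 9 libraries, without normalization, and FPKM values for 100 features in the same libraries. The second table names no unit, and FPKM was inferred from its values. The submitters' processing notes name HISAT2, FastQC, DESeq2 and featureCounts, with the GRCh38 build. No source used here states the annotation release or strand setting. Per the labels' protocols, polyadenylated RNA was captured, which limits the data to such transcripts.

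The table had 22605 features. The 2142 transcripts assembled by the authors (1.25% to 1.41% of counts) were left out, and 20463 annotated genes were kept. The test was edgeR 4.0.16 in R 4.3.3, with filterByExpr, TMM scaling, and a robust quasi-likelihood fit of all 9 libraries with group as the term (6 residual degrees of freedom). P-values were adjusted by Benjamini-Hochberg over 13968 genes per comparison and called under 0.05. SE is the size of the log2 fold change over the root of F. Alternatives included DESeq2 1.42.0. Positions and exon overlaps came from GENCODE 29 on GRCh38, and overlaps of at least 10% are marked beside the named genes. Replicate pairs differed beyond sampling noise (chi-square per degree of freedom of 7.22 or more), so none was merged. The members and lists were chosen with earlier results of these data known. Some genes are not reported here by name, though counts over lists include them. Genes of the lists were mostly named as the 3 called genes with the largest change in each direction per comparison. Others, among them *ITGB1*, *EGFR*, *MRC2*, *ITGB5*, *SERPINI1* and *SERPINB6*, were named outside this rule.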

Additional observations from a re-analysis of the deposited data

How the results depend on the processing

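The 15 log2 fold changes of the 5 genes were recomputed under 19 alternatives: of 285 values, 246 kept direction and side of the threshold, 29 lost the call, 9 gained it and 1 changed sign. The falls of *PLAUR*, *SERPINE2* and *SERPINB2* at 100 µM, their higher level at 200 µM than at 100 µM, and the higher *SERPINE2* and lower *PLAT* at 200 µM than in control kept their calls in all 19. The cause of the changes below was not tested.

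*PLAT* at 100 µM against control was called with DESeq2 (-0.19), after GC removal (-0.39), with GC removal and the replicate block (-0.39) and in the fit of the 2 groups (-0.19); single libraries left out gave -0.24 to -0.15. *PLAT* at 200 µM against 100 µM was not called after GC removal (-0.10), with GC removal and the replicate block (-0.10), with the replicate block alone (-0.23) or in the 2 groups (-0.22), and gave -0.31 to -0.19 with single libraries left out. *PLAUR* at 200 µM against control was not called after GC removal (0.18), with both GC removal and the replicate block (0.18), with the block alone (0.26), unfiltered (0.25), in the 2 groups (0.25) or with total counts (0.23), and gave 0.20 to 0.29 with libraries left out. *PLAU* at 200 µM against 100 µM was called with DESeq2 (-1.54) and after GC removal (-1.49), and gave -2.62 to -1.16 with libraries left out. *PLAU* gave 1.68 to 2.21 at 100 µM against control and -0.63 to 0.82 at 200 µM against control when libraries were left out, the sign turning without 200 µM replicate 2 (-0.63). *SERPINB2* at 200 µM against control was called by DESeq2 (-0.52).

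Among the 5, the number higher at 200 µM than in control was 1, not 2, after GC removal, unfiltered, with total counts, in the 2 groups and under the replicate block with or without GC removal (1 to 2 with libraries left out). The number lower at 200 µM than at 100 µM was 2 with DESeq2 and 0 in the 2 groups and under the block with or without GC removal (0 to 2). The number lower at 200 µM than in control was 2 with DESeq2. The number higher at 100 µM was 0 to 1 with libraries left out. Other serpins higher numbered 1 at 100 µM and 0 at 200 µM after GC removal and under the block with or without it, and 0 at 200 µM in the 2 groups (1 to 2 at 100 µM and 0 to 1 at 200 µM with libraries left out); those lower at 200 µM numbered 3 to 5. Other system genes lower numbered 6 to 14 at 100 µM against control and 8 to 14 between the doses with libraries left out. Over all genes, 5181 were called at 100 µM against control, 8417 in the fit of the 2 groups, and 3469 to 7943 with libraries left out, the highest without 200 µM replicate 3.

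Replicate numbers are shared by the groups but did not pair the libraries: same-numbered libraries correlated at -0.16 to 0.03, and own numbers were highest in 2 of 18 pairings. With the replicate block 4264, 4369 and 5404 genes were called in the 3 comparisons, against 5181, 5211 and 6196 without it. *PLAU* had 6 to 77 counts per library. Without 200 µM replicate 3, of 51 tested genes of the other lists 30 of 31 calls at 200 µM against control and 34 of 34 against 100 µM held in direction, 3 and 1 calls were gained, and the call of *SERPINB7* against control was lost (adjusted p = 0.056). Between the doses 3 called values moved by over 1.5 times: *MRC2* (-0.45, -0.29 without it), *ITGB5* (-0.52, -0.34) and *EGFR* (0.49, 0.33).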
